A study of Mus musculus with 24 samples.

Results

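The genes described here are the 35 genes of the tricarboxylic acid (TCA) cycle, of pyruvate entry into it and of the side reactions that refill or drain it, chosen by name from 50686 genes counted. All 35 were counted in every library and passed the filter on low counts. They cover citrate synthase and the isocitrate dehydrogenases (6 genes), the 2-oxoglutarate dehydrogenase complex (4), succinyl-CoA ligase, fumarase and the malate dehydrogenases (6), the pyruvate dehydrogenase complex (4), its kinases and phosphatases (6), the mitochondrial pyruvate carrier (2), and anaplerosis, malic enzymes and metabolite exchange (7).

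Strand-specific mRNA libraries were sequenced from mice of a model of pantothenate kinase-associated neurodegeneration, a disease of the gene PANK2. The double knockouts (Pank1-/-Syn-Pank2-/-, here dKO) and the wild type mice (WT) were on the C57BL/6 background, and the tissue was labelled "Back left brain". Each of 8 groups held 3 libraries: dKO and WT, females and males, at day 20 and at day 10. The labels give neither the meaning of Syn nor the part of either gene that was removed. Whether every library stands for its own animal is not stated, so the p-values reflect only how far these samples vary, and part of that may be technical.

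Acetyl-CoA made from pyruvate by the pyruvate dehydrogenase complex joins oxaloacetate in the mitochondrial matrix, and the turns of the cycle that follow feed electrons to the respiratory chain. The pyruvate and the 2-oxoglutarate dehydrogenase complexes both use free coenzyme A, whose synthesis starts with pantothenate kinase. Kinases (PDK) switch the pyruvate dehydrogenase complex off by phosphorylation, and phosphatases (PDP) switch it on again. In the brain the cycle also supplies glutamate and GABA, and the malate-aspartate shuttle carries reducing equivalents into mitochondria.

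In 23 libraries gene counts were 9.19 to 44.7 M (M, mega), so that 1 count was 0.0224 to 0.109 CPM (counts per 1000000, scaled by TMM factors). Replicate numbers here only name libraries, in the order of the sample list within a group. Only 45964 gene counts were found in dKO male day 10 replicate 3, and it was left out, leaving 5 dKO libraries at day 10 and 6 in each other set. Pank1 averaged 7.49 ± 0.46 CPM in dKO and 22.7 ± 2.34 CPM in WT at day 20 (SD, n = 6 each), a log2 change of -1.59. Pank2 averaged 42.0 ± 3.16 CPM in dKO and 56.5 ± 3.32 CPM in WT at day 20, a log2 change of -0.43. At day 10 Pank1 averaged 8.13 ± 0.67 CPM in 5 dKO and 22.7 ± 1.64 CPM in 6 WT libraries, a log2 change of -1.47. Pank2 averaged 49.6 ± 3.02 CPM in dKO and 52.5 ± 3.42 CPM in WT at day 10, with overlap. Its log2 change of -0.09 at day 10 was not called (adjusted p = 0.314, edgeR). Summed cerebellar markers were 2319 to 2682 CPM in dKO and 2005 to 2857 CPM in WT libraries at day 20, while 8 forebrain markers summed to 66.8 to 77.8 CPM in dKO and 59.5 to 65.5 CPM in WT libraries, without overlap (1 of 7 tested was called, Drd1, lower). At day 10 markers of brain region differed more widely among libraries. Summed hindbrain Hox markers were 0.112 CPM in dKO male day 10 replicate 2 and 104 CPM in dKO female day 10 replicate 2, against 2.19 to 54.9 CPM in WT libraries.

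At day 20 Pdk4 had the greatest difference between genotypes and Pck2 the smallest p. Pdk2, like Idh1, had a difference called in opposite directions at the 2 days. For these reasons the promoter stretches of the 3 called members Pdk4, Pck2 and Pdk2 are shown. They are RefSeq sequences on GRCm38.p6, up to 250 bases before the annotated start, and 32 of the 35 genes have such an entry (Pdp1, Me2 and Idh3a do not). Capitals mark matches, on either strand, to 6 short motifs: TGTTTAC (forkhead), AGAACA (steroid receptor half-site), AAGGTCA (estrogen-related receptor), TGATGNAA (ATF4-C/EBP, N being any base), CCAAT and CACGTG (E-box). None of the matches shown overlapped another.
Pdk4, chr6:5496310-5496528, minus strand: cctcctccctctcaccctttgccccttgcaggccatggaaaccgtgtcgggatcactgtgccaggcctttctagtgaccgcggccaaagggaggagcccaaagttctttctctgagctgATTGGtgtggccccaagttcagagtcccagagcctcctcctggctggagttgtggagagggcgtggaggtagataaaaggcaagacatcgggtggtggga
Pck2, chr14:55540016-55540265, plus strand: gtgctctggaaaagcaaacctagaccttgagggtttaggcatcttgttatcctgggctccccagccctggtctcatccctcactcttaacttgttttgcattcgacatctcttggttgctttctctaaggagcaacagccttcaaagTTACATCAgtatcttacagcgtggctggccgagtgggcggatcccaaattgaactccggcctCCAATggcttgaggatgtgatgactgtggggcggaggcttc
Pdk2, chr11:95041372-95041621, minus strand: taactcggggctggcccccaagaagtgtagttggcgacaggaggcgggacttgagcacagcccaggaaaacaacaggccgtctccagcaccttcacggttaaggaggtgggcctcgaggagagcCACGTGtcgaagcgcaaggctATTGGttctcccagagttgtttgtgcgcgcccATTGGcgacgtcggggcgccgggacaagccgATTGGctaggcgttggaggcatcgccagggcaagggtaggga

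The Pck2 stretch holds a TGATGNAA match, and Me3 and Got1 are the other members with one, while 3.91% of all 27025 genes with a promoter entry have one. CACGTG occurs before Pdk2, Ogdh, Pdp2, Pcx and Slc25a1 (5 of 32 members, 6.86% of all genes), and CCAAT before 20 of 32 members (37.5% of all genes). AGAACA occurs before 3 of 32 members (18.2% of all genes), AAGGTCA before 1 (4.70%) and TGTTTAC before 0 (3.54%). These matches describe letters in the window and are neither binding sites nor causes.

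At day 20, 5 of the 35 genes were higher in dKO and 15 were lower. The 5 higher were Pdk4, Pck2, Idh2, Me3 and Pdk2. The 15 lower came from each of the groups of roles listed above: Idh1, Ogdh, Slc25a1, Dlst, Pdk3, Cs, Idh3a, Me2, Fh1, Pdp1, Mdh1, Pdha1, Mpc2, Suclg1 and Dld. A call means an adjusted p under 0.05 in edgeR's quasi-likelihood test, with Benjamini-Hochberg adjustment over 21657 genes. By this rule 19.4% of all genes tested were called higher and 19.5% lower, against 14.3% and 42.9% of these 35. Among the 10814 genes that averaged 10 CPM or more, 22.1% were called higher and 24.9% lower. The median log2 change was -0.12 over the 35 genes and -0.00037 over all genes, and 25 of the 35 were below 0. Every dKO library lay above every WT library for 5 of the genes and below for 8, where 9.79% and 10.3% of all genes did so. The falls were small, from -0.11 to -0.47 on the log2 scale, with a median of -0.22 against -0.39 for all genes called lower. In bulk tissue fewer cells of a type and less RNA per cell cannot be told apart.

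Markers of several cell types also differed at day 20. Summed microglial markers were 102 to 154 CPM in dKO and 172 to 206 CPM in WT libraries, with 8 of 10 called lower. Endothelial and mural markers summed to 252 to 307 CPM in dKO and 400 to 440 CPM in WT libraries (7 of 10 lower, 1 higher), and erythrocyte markers to 75.8 to 131 CPM in dKO and 320 to 676 CPM in WT libraries (6 of 6 lower). Oligodendrocyte markers summed to 12126 to 15497 CPM in dKO and 15737 to 20459 CPM in WT libraries (4 of 11 lower, 1 higher). Neuron markers summed to 4796 to 5627 CPM in dKO and 5530 to 5886 CPM in WT libraries (2 of 12 lower), and astrocyte markers to 4788 to 5449 CPM in dKO and 5258 to 5603 CPM in WT libraries (3 of 10 higher, 3 lower). Choroid plexus markers summed to 231 to 529 CPM in dKO and 524 to 679 CPM in WT libraries (4 of 8 lower). No marker gene was at 0 in every library of a set. The part of these cell types in the levels of the 35 genes was not tested.

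**Figure D1:**
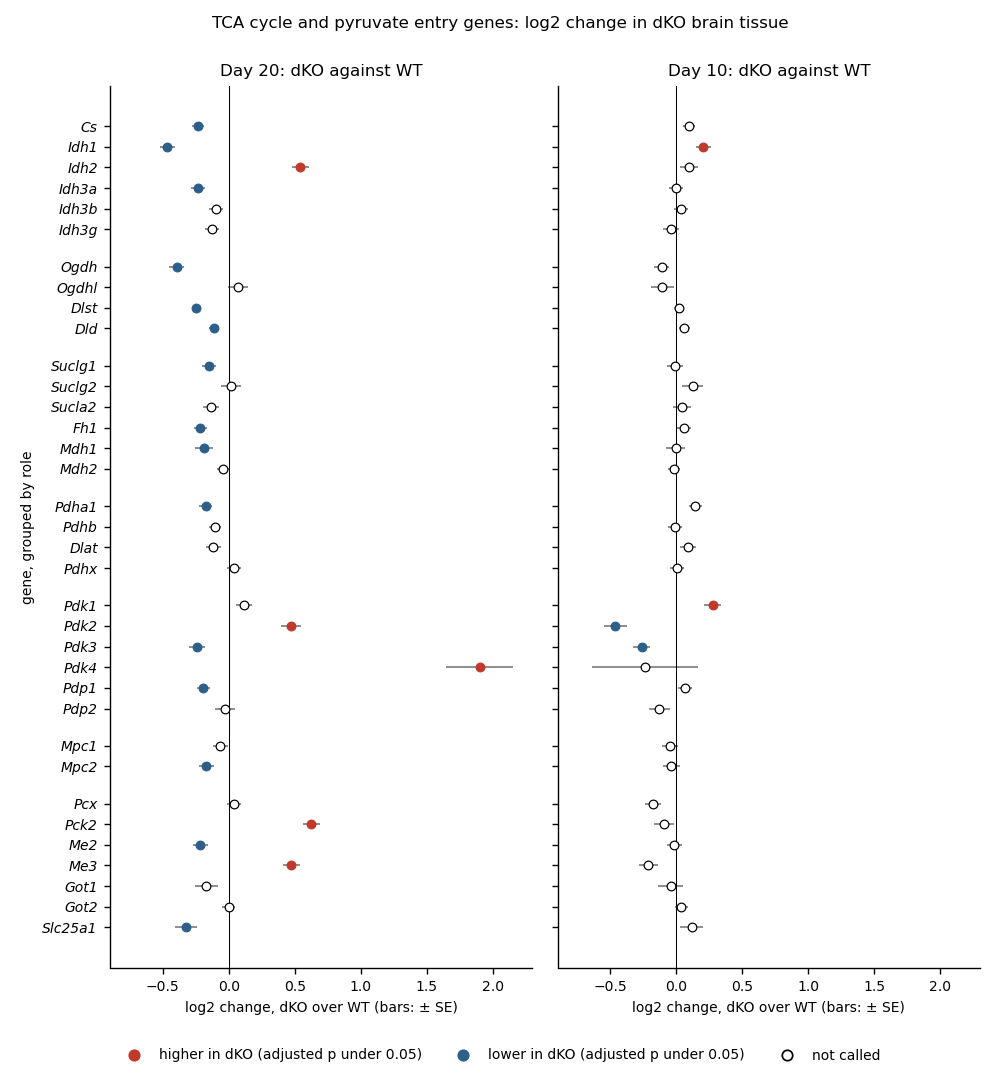
Log2 change (dKO over WT, ± SE) of the 35 genes at day 20 on the left and day 10 on the right, grouped by role; filled points passed the test. At day 20, Pdk4 stands at 1.90 and the 15 lower genes lie between -0.47 and -0.11, whereas at day 10 only 4 points are filled.

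The kinases and phosphatases of the pyruvate dehydrogenase complex changed in both directions: 2 of 6 were higher at day 20 and 2 were lower. Pdk4, the kinase induced by fasting and fatty acids in many tissues, read 17.4 CPM in the lowest, 32.8 at the median and 57.4 in the highest of the 6 dKO libraries at day 20, against 7.60, 8.61 and 13.6 CPM in WT. The sets did not overlap, and both the highest and the lowest dKO libraries were female. Its log2 change was 1.90 ± 0.25 (SE; 3.74-fold, adjusted p = 1.75e-05, edgeR), the greatest of the 35.

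Pdk2, the kinase most abundant per length here at day 20, read 87.3, 94.9 and 102 CPM (lowest, median and highest) in dKO at day 20, against 62.5, 66.4 and 74.3 CPM in WT. All dKO libraries were above all WT libraries. The log2 change was 0.47 ± 0.08 (1.39-fold, adjusted p = 3.8e-05, edgeR). Pdk3 went the other way, with 29.5, 32.2 and 35.8 CPM in dKO at day 20 against 34.98, 39.2 and 41.9 CPM in WT. Its sets overlapped slightly, and it was lower, with a log2 change of -0.24 ± 0.06 (adjusted p = 0.0026, edgeR).

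Pdk1, the kinase known as a hypoxia-inducible target, was not called at day 20. It read 31.5, 33.3 and 37.5 CPM in dKO and 28.3, 31.1 and 33.5 CPM in WT, and the sets overlapped (log2 change 0.11 ± 0.06, adjusted p = 0.145, edgeR). Of the phosphatases, the calcium-stimulated Pdp1 was lower (log2 change -0.19 ± 0.05, adjusted p = 0.00305, edgeR), and Pdp2 had a log2 change of -0.03 ± 0.08 without a call.

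**Figure D2:**
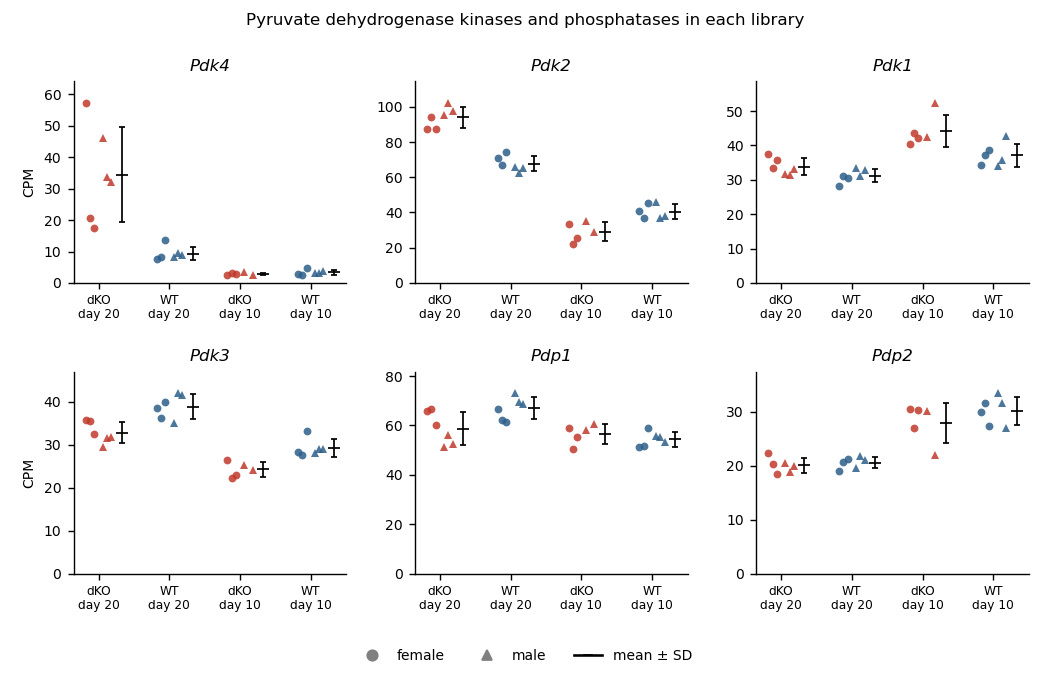
CPM of the 4 kinases and 2 phosphatases in each of the 23 libraries, with mean ± SD beside each set; circles are females and triangles males. In Pdk4 the dKO libraries of day 20 run from 17.4 to 57.4 CPM, and in Pdk2 the dKO libraries lie above WT at day 20 and below WT at day 10.

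Levels of different genes were compared per length, as CPM per kb of annotated exon. On that scale the 4 kinases summed to 56.7 ± 4.45 in dKO at day 20 and 43.2 ± 2.02 in WT (SD, n = 6 each), with ranges of 49.9 to 62.8 in dKO and 41.2 to 46.8 in WT that did not overlap. Pdk4 made up 16.9 ± 6.3% of the kinase sum in dKO at day 20 and 6.12 ± 1.14% in WT. Pdk3 made up 22.7 ± 2.42% in dKO and 35.1 ± 2.11% in WT, again without overlap. The ratio of kinase to phosphatase levels was 3.45 ± 0.41 in dKO at day 20 (2.93 to 3.94) and 2.35 ± 0.20 in WT (2.10 to 2.70). At day 10 that ratio was 1.44 ± 0.08 in 5 dKO libraries and 1.72 ± 0.10 in 6 WT libraries, so the dKO libraries were the higher set at day 20 and the lower set at day 10. These sums are descriptions and were given no test.

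**Figure D3:**
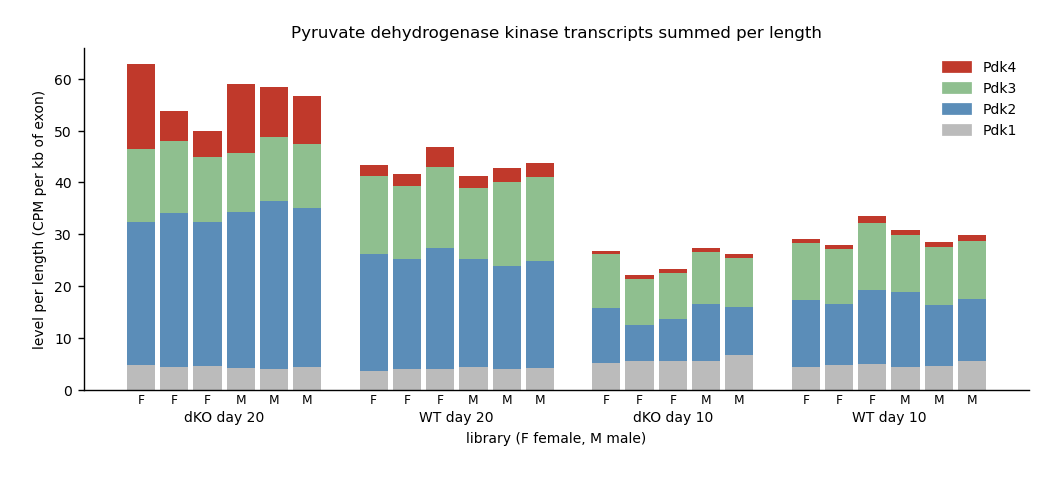
Stacked levels per length (CPM per kb of exon) of Pdk4, Pdk3, Pdk2 and Pdk1 in each library, females (F) then males (M) in each set. The dKO columns of day 20 reach 49.9 to 62.8, above the 41.2 to 46.8 of WT at day 20, and hold the tallest Pdk4 segments.

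The subunits of the complex that these kinases act on moved less. Pdha1, the E1 alpha subunit that carries the phosphorylation sites, was lower in dKO at day 20, with a log2 change of -0.18 ± 0.05 (adjusted p = 0.00426, edgeR). Its partners were not called: Pdhb (E1 beta) had a log2 change of -0.11, Dlat (E2) -0.12 and Pdhx (the E3-binding protein) 0.04. Of the pyruvate carrier, Mpc2 was lower (-0.17 ± 0.06, adjusted p = 0.0253, edgeR), a call lost in 5 of 33 alternatives, while Mpc1 had a log2 change of -0.06 without a call.

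At the entry of the cycle, 1 of 6 genes of citrate synthase and the isocitrate dehydrogenases was higher and 3 were lower at day 20. Cs, citrate synthase, read 171, 178 and 187 CPM in dKO at day 20 against 205, 208 and 216 CPM in WT. No dKO library reached the lowest WT library, and the log2 change was -0.23 ± 0.04 (adjusted p = 0.000216, edgeR). Idh3a, the catalytic subunit of the NAD-dependent enzyme of the cycle, read 130.0, 140.3 and 157 CPM in dKO against 161, 167 and 175 CPM in WT. These sets were also apart (-0.23 ± 0.05, adjusted p = 0.000797, edgeR). Its companion subunits Idh3b and Idh3g had log2 changes of -0.10 and -0.13 and were not called.

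The NADP-dependent pair moved in opposite directions at day 20. Idh2, the mitochondrial form, read 39.0, 42.9 and 44.3 CPM in dKO against 26.6, 28.1 and 32.1 CPM in WT, with every dKO library above every WT library. Its log2 change was 0.54 ± 0.07 (adjusted p = 1.1e-06, edgeR). Idh1, the cytosolic form, read 36.4, 45.0 and 50.2 CPM in dKO against 55.8, 60.6 and 67.5 CPM in WT, with every dKO library below every WT library. Its log2 change was -0.47 ± 0.06 (adjusted p = 1.13e-06, edgeR), the deepest fall of the 35. Per length, Idh2 was 50.5 ± 4.33% of the pair in dKO at day 20 and 33.7 ± 3.10% in WT.

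Of the 4 genes of the 2-oxoglutarate dehydrogenase complex, 3 were lower in dKO at day 20. Ogdh, its E1 subunit, read 204, 251 and 278 CPM in dKO against 314, 323 and 343 CPM in WT, with no overlap. The log2 change was -0.40 ± 0.05 (adjusted p = 5.41e-06, edgeR). Dlst, the E2 core, read 97.6, 102 and 104 CPM in dKO against 116, 119.9 and 123 CPM in WT, also with no overlap (-0.25 ± 0.04, adjusted p = 1.41e-05, edgeR). Dld, the E3 subunit shared with the pyruvate dehydrogenase complex, was lower, with a log2 change of -0.11 ± 0.04 (adjusted p = 0.0292, edgeR), a call lost in 9 of 33 alternative analyses.

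Ogdhl, a brain-enriched relative of Ogdh, was not called, with 98.1, 112 and 115 CPM in dKO at day 20 against 99.1, 101 and 119 CPM in WT. The sets overlapped, and the log2 change was 0.07 ± 0.08 (adjusted p = 0.519, edgeR). Per length, Ogdhl was 36.9 ± 2.59% of the Ogdh and Ogdhl sum in dKO at day 20 and 29.7 ± 1.11% in WT, with ranges of 33.3 to 40.8% and 28.4 to 31.3%.

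Further round the cycle 3 of 6 genes were lower and none was higher. Fh1, fumarase, read 52.6, 60.2 and 64.9 CPM in dKO at day 20 against 67.9, 68.9 and 72.2 CPM in WT, without overlap (-0.21 ± 0.05, adjusted p = 0.000937, edgeR). Mdh1, the cytosolic malate dehydrogenase of the malate-aspartate shuttle, had the highest level per length of the 35 in all 4 sets, at 173 CPM per kb in dKO and 197 CPM per kb in WT at day 20. It was lower, with a log2 change of -0.19 ± 0.07 (adjusted p = 0.039, edgeR), and its call was lost in 10 of 33 alternatives. Suclg1, the shared alpha subunit of succinyl-CoA ligase, was lower, with a log2 change of -0.15 ± 0.06 (adjusted p = 0.0369, edgeR), a call lost in 9 of 33. Sucla2, Suclg2 and mitochondrial Mdh2 had log2 changes of -0.13, 0.02 and -0.04 and were not called.

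Among the 7 genes of anaplerosis and exchange, 2 were higher and 2 lower. Pck2, the mitochondrial phosphoenolpyruvate carboxykinase, had the smallest p of the 35 at day 20. It read 30.7, 33.4 and 36.6 CPM in dKO against 19.4, 21.2 and 25.7 CPM in WT, and the sets were clearly apart. The log2 change was 0.63 ± 0.06 (1.54-fold, adjusted p = 1.34e-07, edgeR).

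The mitochondrial malic enzymes, which turn malate into pyruvate, diverged. Me3, the NADP-dependent form, read 74.0, 76.4 and 87.2 CPM in dKO at day 20 against 49.0, 56.8 and 65.6 CPM in WT, with no overlap (0.48 ± 0.07, adjusted p = 6.6e-06, edgeR). Me2 was lower, with a log2 change of -0.22 ± 0.05 (adjusted p = 0.00344, edgeR). Slc25a1, the mitochondrial citrate carrier, was lower, with a log2 change of -0.32 ± 0.08 (adjusted p = 0.00346, edgeR). Pcx (pyruvate carboxylase), Got1 and Got2 (the cytosolic and mitochondrial aspartate aminotransferases) had log2 changes of 0.04, -0.17 and -0.0019 and were not called. An antisense gene shares 569 exon bases with Me3, and Map3k15, on the opposite strand, shares 603 with Pdha1, but the counts used were those of each gene's own strand.

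**Figure D4:**
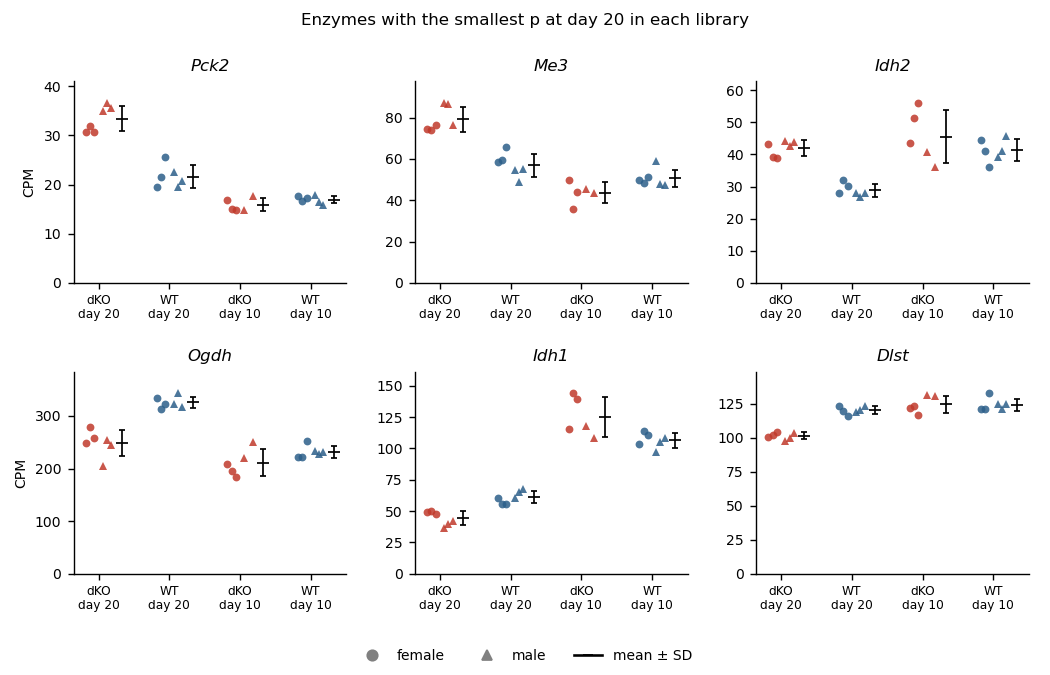
CPM of Pck2, Me3, Idh2, Ogdh, Idh1 and Dlst in each of the 23 libraries, with mean ± SD beside each set; circles are females and triangles males. At day 20 the dKO libraries lie wholly above WT in Pck2, Me3 and Idh2 and wholly below WT in Ogdh, Idh1 and Dlst.

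All 5 genes higher at day 20 were called higher in females and in males taken alone, where 5.33% and 17.8% of all genes were. In females 2 genes were lower (Ogdh and Dlst; 5.37% of all genes) and in males 17 were (17.5% of all genes). Of the 7 calls in females 3 were made in all 33 alternatives (Pck2, Idh2 and Dlst), while Pdk2 and Me3 lost theirs in 11 each, Ogdh in 2 and Pdk4 in 1. Of the 22 calls in males 15 were made in all, those of the 5 higher genes among them, and 7 were lost in at least 1. Pdk4 averaged 31.8 CPM in dKO and 9.79 CPM in WT females (log2 change 1.73 ± 0.36), and 37.3 CPM in dKO and 8.91 CPM in WT males (2.08 ± 0.36).

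At day 20 the levels of cell type markers in each sex were as follows. Neuron markers summed to 4796 to 5207 CPM in dKO and 5659 to 5886 CPM in WT males, without overlap, and to 5268 to 5627 CPM in dKO and 5530 to 5693 CPM in WT females, with overlap. The median log2 change was -1.20 in males and -0.39 in females over 10 microglial markers, and -0.55 in males and -0.13 in females over 11 oligodendrocyte markers. Over 6 erythrocyte markers it was -3.08 in males and -2.11 in females, and over 10 astrocyte markers -0.10 in males and 0.03 in females. Over 10 endothelial and mural markers it was -0.49 in each sex. Choroid plexus markers went the other way, at -0.48 in males and -0.77 in females over 8 genes. The part of these cell types in the differences between the sexes was not tested.

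With all groups fitted together, no gene was called for a difference of the genotype effect between the sexes at day 20 by edgeR or limma-voom, while 8 of the 35 had an unadjusted p under 0.05 (15.2% of all genes) and DESeq2 called 2. With only the compared groups fitted edgeR called 4 members, and with 1 library left out it called 0 to 2: 2 without dKO male day 10 replicate 1 or replicate 2, and 1 without dKO male day 20 replicate 2 or WT female day 10 replicate 3. In the fit of all groups together edgeR called 0.0% of all genes tested. The shares of all genes called in the other fits are not given here. The 2 with the smallest adjusted p were Idh1 and Pdp1. Idh1 ranged from 47.7 to 50.2 CPM in dKO and 55.8 to 60.5 CPM in WT females, against 36.4 to 42.2 CPM in dKO and 60.6 to 67.5 CPM in WT males. Its male minus female difference in log2 change was -0.48 ± 0.11 (adjusted p = 0.0673, edgeR). Pdp1 ranged from 60.1 to 66.7 CPM in dKO and 61.3 to 66.7 CPM in WT females, against 51.2 to 56.0 CPM in dKO and 68.9 to 73.0 CPM in WT males. The difference for Pdp1 was -0.42 ± 0.10 (adjusted p = 0.0665, edgeR). WT males and females did not differ by a call in any of the 35 genes, with 0 also at an unadjusted p under 0.05 and 0 by DESeq2 or limma-voom (0.0693% of all genes called by edgeR, 2.72% at an unadjusted p under 0.05). At day 10 no member was called for such a difference by edgeR, DESeq2 or limma-voom (0.0% of all genes by edgeR), while 12 of the 35 had an unadjusted p under 0.05 (2599 genes of all, or 12%).

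At day 10, 2 of the 35 genes were higher in dKO (Pdk1 and Idh1) and 2 were lower (Pdk2 and Pdk3), where 3.88% of all genes were called higher and 1.91% lower. The median log2 change was -0.0067 over the 35 genes and 0.0055 over all genes. Pdk2 read 33.4, 21.9, 25.7, 35.3 and 29.0 CPM in the 5 dKO libraries, against 36.8, 39.3 and 45.9 CPM (lowest, median and highest) in the 6 WT libraries. All dKO libraries were below all WT libraries, the reverse of day 20, with a log2 change of -0.46 ± 0.09 (adjusted p = 0.0114, edgeR).

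Pdk3 read 26.5, 22.3, 23.0, 25.2 and 24.2 CPM in dKO at day 10, against 27.5, 28.5 and 33.2 CPM in WT. It too had every dKO library below every WT library (-0.26 ± 0.07, adjusted p = 0.0302, edgeR). Pdk2 and Pdk3 were the only members so placed at day 10, where 0.947% of all genes had all dKO libraries below WT, and no member had them all above (1.04% of all genes).

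Pdk1 read 40.5, 43.6, 42.3, 42.4 and 52.5 CPM in dKO at day 10, against 33.9, 36.5 and 42.8 CPM in WT. The sets overlapped, and the highest dKO library was male replicate 2 (log2 change 0.27 ± 0.06, adjusted p = 0.0233, edgeR). Idh1 read 115, 144, 139, 118 and 108 CPM in dKO, against 97.3, 107 and 114 CPM in WT, with overlap (0.20 ± 0.06, adjusted p = 0.0423, edgeR).

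Pcx, the next by p at day 10, read 73.8, 63.3, 76.9, 72.6 and 63.0 CPM in dKO, against 71.5, 78.6 and 86.0 CPM in WT (log2 change -0.18 ± 0.06, adjusted p = 0.0668, edgeR). Its sets overlapped. Pdk4, the gene with the greatest change at day 20, read 2.45, 3.16, 2.92, 3.34 and 2.62 CPM in dKO at day 10, against 2.60, 3.27 and 4.66 CPM in WT. At these low levels the sets overlapped (-0.24 ± 0.40, adjusted p = 0.767, edgeR).

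None of the 4 calls at day 10 held in all alternatives. Without dKO male day 10 replicate 2, whose Hox markers were near 0 and whose choroid plexus gene Ttr read 1.90 CPM, no member was called (16 genes of all), and without WT male day 10 replicate 1, dKO female day 10 replicate 2 or dKO female day 10 replicate 3 only 1 was in each case. Without WT male day 10 replicate 3, 7 members were called. The shares of all genes called in the fits that called 1 or 7 members are not given here. With both dKO female and male day 10 replicate 2 left out, an alternative chosen after the data were seen, no member was called and Pdk2 had a log2 change of -0.35 (adjusted p = 0.268, edgeR). Summed oligodendrocyte markers were 4428 to 6743 CPM in dKO and 6329 to 12613 CPM in WT libraries at day 10, with 4 of 11 called lower. The WT library at 12613 CPM was female replicate 3, and the next highest, male replicate 3, had 8468 CPM. Neuron markers summed to 4741 to 6053 CPM in dKO and 4474 to 5193 CPM in WT libraries at day 10 (3 of 12 higher), and the 8 forebrain markers to 50.8 to 92.2 CPM in dKO and 50.1 to 56.4 CPM in WT libraries (1 of 7 tested higher). Cerebellar markers summed to 517 to 2172 CPM in dKO and 1412 to 3284 CPM in WT libraries at day 10, with none of 10 called and a median log2 change of -0.62. The part of cell and region makeup in the day 10 values was not tested. In females alone Pdk2 was the only call at day 10 (log2 change -0.60, adjusted p = 0.0268, edgeR; 0.591% of all genes called). In males alone no gene of the 35 was called by edgeR or limma-voom, 1 was by DESeq2 and 12 had an unadjusted p under 0.05 (0.0139% of all genes called by edgeR, 19.5% at an unadjusted p under 0.05).

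The genotype difference was not the same at the 2 days for 16 of the 35 genes: it was more positive at day 20 for 6 and more negative for 10, against 13.8% and 14.9% of all genes. Pdk4 led the 6, with a difference between the log2 changes of the 2 days of 2.14 ± 0.47 (adjusted p = 0.00301, edgeR). For Pdk2 the difference was 0.94 ± 0.11 (adjusted p = 6.39e-06, edgeR), and its genotype effect was called in opposite directions at the 2 days. Pck2, which read 16.9, 15.1, 14.8, 14.8 and 17.6 CPM in dKO at day 10 against 15.9, 16.9 and 17.9 CPM in WT, overlapped at day 10 and had a difference of 0.72 ± 0.10 (adjusted p = 2.04e-05, edgeR).

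Me3 read 49.6, 35.9, 43.9, 45.3 and 43.4 CPM in dKO at day 10 against 47.5, 49.2 and 58.9 CPM in WT, with overlap and most dKO libraries low, and its difference was 0.69 ± 0.10 (adjusted p = 3.14e-05, edgeR). Idh1 led the 10 more negative genes, at -0.67 ± 0.08 (adjusted p = 5.42e-06, edgeR), being called higher in dKO at day 10 and lower at day 20. Idh2 (0.45) and Pcx (0.22) completed the first group. Slc25a1, Cs, Pdha1, Ogdh, Fh1, Dlst, Pdp1, Idh3a and Dld, between -0.44 and -0.17, completed the second. Of the 15 genes lower at day 20, 8 had a log2 change above 0 at day 10. Of the 16 calls for genotype by day, 11 were made in every alternative analysis and 5 were lost in at least 1.

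Between day 10 and day 20 the WT tissue itself changed: 17 of the 35 genes were higher at day 20 and 8 lower, against 26.1% and 25.3% of all genes. In dKO 12 were higher and 14 lower, against 30.3% and 31.2% of all genes. These contrasts share no library with each other, but each shares its libraries with the genotype comparisons above. Of the members 19 were called in the same direction in both genotypes (36.9% of all genes) and none in opposite directions (2.11%), with 6 called in WT only (12.3%) and 7 in dKO only (22.5%).

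Idh1 had the smallest p for WT day 20 against day 10, with 55.8, 60.6 and 67.5 CPM at day 20 against 97.3, 107 and 114 CPM at day 10. The days did not overlap in WT, and the log2 change was -0.81 ± 0.06 in WT (adjusted p = 1e-10) and -1.48 ± 0.06 in dKO (adjusted p = 1.04e-14, edgeR). Ogdhl was next, at 99.1, 101 and 119 CPM in WT at day 20 against 43.4, 46.6 and 57.9 CPM at day 10. Its log2 change was 1.11 ± 0.08 in WT and 1.29 ± 0.09 in dKO, and the genotypes were not called different in it (0.18 ± 0.12, adjusted p = 0.272, edgeR).

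Pdk2 had a log2 change of 0.73 ± 0.08 in WT and 1.67 ± 0.09 in dKO between the days. Pdk4 had the greatest change with age in both genotypes, 3.58 ± 0.34 in dKO and 1.44 ± 0.30 in WT (adjusted p = 8.15e-08 and 0.000738, edgeR). Pck2 changed by 1.06 in dKO and 0.34 in WT, and Me3 by 0.85 in dKO and 0.16 in WT. Idh2 was lower at day 20 in WT (-0.51 ± 0.07, adjusted p = 7.25e-07, edgeR), while in dKO its log2 change was -0.06 ± 0.07 without a call. For Idh2, then, day 20 dKO libraries (39.0 to 44.3 CPM) covered much the same levels as WT libraries at day 10 (36.2 to 45.9 CPM).

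**Figure D5:**
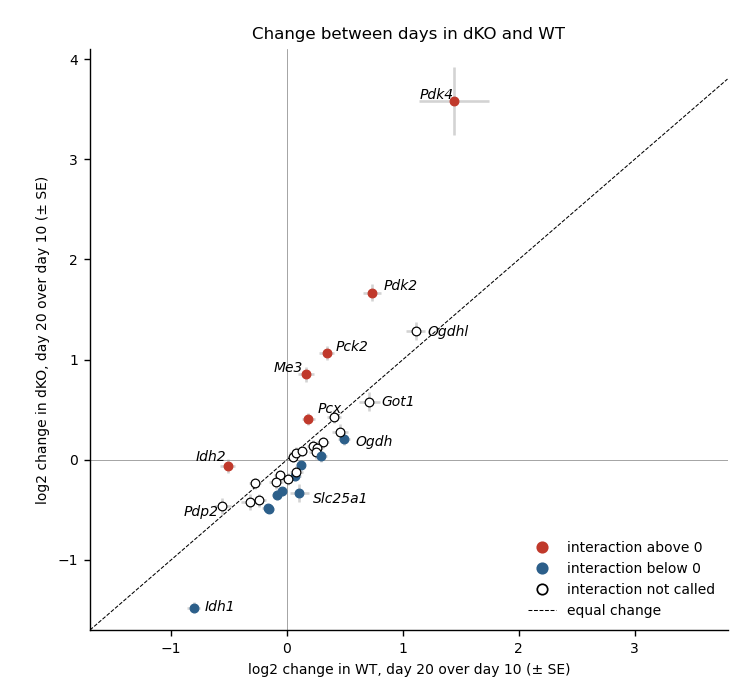
Log2 change between day 20 and day 10 in dKO (vertical axis) and WT (horizontal axis), ± SE, for the 35 genes; the dashed line marks equal change and filled points were called in the genotype by day test. Pdk4, Pdk2, Pck2 and Me3 lie above the line, and Idh1 lies below it at -0.81 in WT and -1.48 in dKO.

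Other genes of the pathway at day 20 were described by lists. For comparison with the counts in each list, 19.4% of all genes tested were called higher and 19.5% lower at day 20. Of 18 further cycle and assembly genes 4 were higher and 5 lower (median log2 change -0.08). Dhtkd1, which encodes the 2-oxoadipate dehydrogenase E1, was higher, with a log2 change of 0.75 ± 0.09, and so was Lias, lipoic acid synthase, at 0.23 ± 0.04. Mrps36, which tethers E3 to the 2-oxoglutarate dehydrogenase complex, was lower at -0.69 ± 0.12, the 2-hydroxyglutarate dehydrogenase D2hgdh at -0.42 ± 0.09, and the complex II genes Sdhaf2 and Sdhc at -0.34 and -0.29. Adjusted p-values of these 6 were 1.29e-06 to 0.00062 (edgeR).

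Of 20 tested genes of carriers, lactate and amino acid entry 4 were higher and 6 lower at day 20 (median -0.09). The aspartate-glutamate carrier Slc25a13 was higher, with a log2 change of 0.84 ± 0.14, and so was glutamine synthetase, Glul, at 0.59 ± 0.09. Lactate dehydrogenase A, Ldha, was lower at -0.51 ± 0.05, the monocarboxylate transporters Slc16a1 and Slc16a7 at -0.52 ± 0.06 and -0.75 ± 0.10, and cytosolic malic enzyme, Me1, at -0.23 ± 0.05. Of 12 genes of mitochondrial content and biogenesis 4 were higher and 3 lower (median -0.01), with the coactivator Ppargc1b lower at -0.54 ± 0.06, the chaperonin Hspd1 lower at -0.38 ± 0.05 and the import motor anchor Timm44 higher at 0.45 ± 0.07. At day 10 the calls in these lists were Ldha (higher, 0.19 ± 0.05), Ppargc1b (lower, -0.31 ± 0.07) and Esrra (lower, -0.28 ± 0.08).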

How the data were processed

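Each library has 1 table of gene counts as the authors deposited it, with columns for unstranded, forward and reverse reads; per the submitters' processing notes STAR 2.5.2b, HTSeq and the build GRCm38.p5 were used, and the annotation is not given in the sources used here. Libraries were TruSeq Stranded mRNA, per the labels' protocols. The reverse column was used, because forward counts were 5.22 to 7.46% of it. The 4 entries naming no gene stayed out; no-feature reads were 41.7 to 47.5%, unmapped 7.65 to 11.0%, multimapping 4.77 to 5.94% and ambiguous 0.589 to 1.05%. Libraries with at least 1000000 gene counts were kept (23 of 24), and no pair was identical. GENCODE M21 matched 50462 identifiers and left 224.

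In R 4.3.3, edgeR 4.0.16 filtered with filterByExpr (21657 genes), scaled by TMM and fitted 8 group means with glmQLFit (robust). Contrasts were tested with glmQLFTest, two-sided, adjusted by Benjamini-Hochberg and called at an adjusted p under 0.05. The script was tested on simulated data. Alternatives were DESeq2 1.42.0, limma-voom (limma 3.58.1), RLE factors, no or a stricter filter, the unstranded column, all 24 libraries, the earlier dispersion estimate, a fit of the compared groups alone, and every library left out in turn. CPM per kb used the union of annotated exons, retained introns included. The members and lists were chosen with earlier results of these data known. Values per library are given for the 12 members with the smallest p at day 20, 5 at day 10, 4 for genotype by day, 3 for WT age and all kinases; up to 6 called genes by p are named for each further list. Precision rests on the counts behind each value and on 2 or 3 libraries per group. 1 marker gene is not reported here.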

Additional observations from a re-analysis of the deposited data

Results flagged for a closer look

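Single libraries stood apart from the rest of their set in 12 of 140 gene and set combinations, where chance gives about 1 in 20. WT female day 10 replicate 3 was the highest of its set for Idh3b (148 CPM), Dlst (133 CPM), Pdhb (113 CPM), Pdk3 (33.2 CPM) and Got1 (156 CPM). Dlat at 136 CPM and Mpc2 at 62.6 CPM were high in dKO female day 20 replicate 1. Pdk1 was high in dKO male day 10 replicate 2 at 52.5 CPM. Among WT libraries, Pdk4 was high in female day 20 replicate 3 (13.6 CPM), Mpc1 low in male day 20 replicate 1 (54.3 CPM), Got1 high in male day 20 replicate 2 (227 CPM) and Me3 high in male day 10 replicate 1 (58.9 CPM).

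The genotype effect differed between the days for 16 genes, by the test of that difference in edgeR. On the log2 scale, day 20 minus day 10, it was 2.14 for Pdk4, 0.94 for Pdk2, 0.72 for Pck2, 0.69 for Me3, 0.45 for Idh2 and 0.22 for Pcx. It was -0.67 for Idh1, -0.44 for Slc25a1, -0.33 for Cs, -0.32 for Pdha1, -0.28 for Ogdh, -0.27 for Fh1, -0.26 for Dlst, -0.26 for Pdp1, -0.23 for Idh3a and -0.17 for Dld.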

How the results depend on the processing

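No member changed direction with a call in any of the 33 alternatives. At day 20, 16 of the 20 calls were made in every alternative; Dld, Suclg1, Mdh1 and Mpc2 lost theirs in 9, 9, 10 and 5. For genotype by day 11 of 16 were made in every one. The 33 include fits without a day 10 library, and these bear on day 20 only through the shared filter, scaling and spread. Day 10 rests on few libraries: against 4 members and 1254 genes called, fitting only the groups compared gave 0 and 6, leaving out both replicates 2 of dKO (added after the data were seen) 0 and 13, DESeq2 2105 genes and no filter 608 genes. In females at day 10 the 1 member called became 6 with DESeq2 and 0 under each of the other 2; in males 0 became 1 with DESeq2. For genotype by sex at day 20, 0 became 2 with DESeq2, 4 with only the groups compared and 2 without both replicates. The cause was not tested. For females, males and genotype by sex, the shares of all genes called in these alternatives are not given here.

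With 1 library left out, members called were 16 to 22 (7312 to 9033 genes) at day 20, 0 to 7 (16 to 4648 genes) at day 10, 12 to 20 (4865 to 7347 genes) for genotype by day, 4 to 10 in females and 16 to 25 in males at day 20, 0 to 6 in either sex at day 10, 0 to 2 and 0 to 3 for genotype by sex at day 20 and day 10, 23 to 27 in WT and 24 to 28 in dKO between days, and 0 to 0 between WT sexes. Where no number of genes stands beside the members, the share of all genes called in those fits is not given here. No paired analysis was possible because the labels give no replicate numbers. Those used here only name libraries. At day 10 Pdk4 had the lowest mean of the 35 genes, 2.90 CPM in dKO and 3.37 CPM in WT. The spread was estimated over all groups together, and the part of depth in the SE of Pdk4 was not tested.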
